A study of Capsicum annuum with 4 samples.

Results

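The MADS-box genes that regulate fruit ripening were described in Chiltepin (Capsicum annuum var. glabriusculum), a wild pepper with small fruits, as a single pool of transcripts whose make-up was followed from CH 20DAA to CH 68DAA (20 and 68 days after anthesis, DAA). The pool held the 6 pepper genes, of 35884 gene models, that the study's list of tomato ripening homologs names FUL1, FUL2, MADS-box protein 1, MADS-RIN (2 copies) and TAGL1. They were taken by name. The copies of MADS-RIN are called MADS-RIN a (on chromosome 11) and MADS-RIN b (on an unplaced scaffold). The letter a was given to the copy with more counts over all libraries. Each stage had 2 RNA-Seq libraries. Both groups were wild type, grown in a greenhouse and given no treatment, so they differed by fruit age alone as far as the labels say. Each library pooled RNA from 6 whole fruits, with placenta and seeds included, and a different set of fruits was taken for each replicate.

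MADS-box proteins bind DNA as dimers and join into larger complexes, so the proteins a cell holds side by side set which complexes can form. In tomato the pool covers 3 branches of the family. FUL1 and FUL2 belong to the FRUITFULL branch (FUL) and act with partly overlapping roles in ripening. RIN, named after the ripening inhibitor mutant, and MADS-box protein 1 belong to the SEPALLATA branch (SEP), whose members bridge complexes. Tomato MADS-box protein 1 is known as a repressor of ripening. TAGL1 belongs to the AGAMOUS branch (AG) and is needed in tomato both for the thickening of the young fruit wall and for ripening. These roles are from tomato and were not measured in pepper.

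The libraries held between 12139415 and 26130664 counts assigned to genes, with the fewest in CH 68DAA replicate 1. The stages were checked on 4 genes of the list. GLK2, a regulator of chloroplasts in green fruit, had 3435 and 3407 counts at 20 DAA against 4 and 5 at 68 DAA. PG2, a pectin-degrading enzyme of ripe fruit, had 3 and 0 counts at 20 DAA against 103119 and 201559 at 68 DAA. PSY1, the entry enzyme of carotenoid synthesis, and SGR1, which starts chlorophyll breakdown, were also higher at 68 DAA. The list names no marker of seed, placenta or pericarp. Whether a gene was lower because fewer cells expressed it or because each cell held less of its RNA cannot be told apart in whole fruits.

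The 6 gene models lie on the CM334 version 1.6 genome as follows. FUL1 (CA.PGAv.1.6.scaffold587.54) spans 223706079 to 223720541 on the minus strand of chromosome 6. MADS-box protein 1 (CA.PGAv.1.6.scaffold1592.4) spans 268834511 to 268842035 on the plus strand of chromosome 3. FUL2 (CA.PGAv.1.6.scaffold1592.5) is the next model on that strand, from 268858992 to 268874268. MADS-RIN a (CA.PGAv.1.6.scaffold1021.30) spans 14752886 to 14760681 on the minus strand of chromosome 11. MADS-RIN b (CA.PGAv.1.6.scaffold1091.1) spans 76214 to 85122 on the plus strand of its scaffold. TAGL1 (CA.PGAv.1.6.scaffold585.57) spans 235694861 to 235706379 on the plus strand of chromosome 7. Counts were taken over exons, and the exons of these models hold coding sequence only.

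The members shared a gene structure that their names did not use. All had 8 exons, except TAGL1 with 7, and coding lengths between 726 bp (MADS-RIN b) and 765 bp (TAGL1). Exons of 100, 42 and 42 bp followed each other in every member, in the middle part of the gene that encodes the K domain, through which MADS-box proteins pair. That run was present in 23 of the 35884 gene models, or 0.0641%. The first 6 exons of MADS-RIN a, MADS-RIN b and MADS-box protein 1 had the same lengths, an arrangement found in no other model. Other exons differed, with a first exon of 245 bp in TAGL1 against 185 bp in the other members, and so did the introns. The first intron was 1431 bp in MADS-box protein 1 and 3381 bp in MADS-RIN a, against 8333 bp in FUL1. The spans ran from 7525 bp (MADS-box protein 1) to 15277 bp (FUL2, whose longest intron, of 7387 bp, was not its first).

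**Figure D1:**
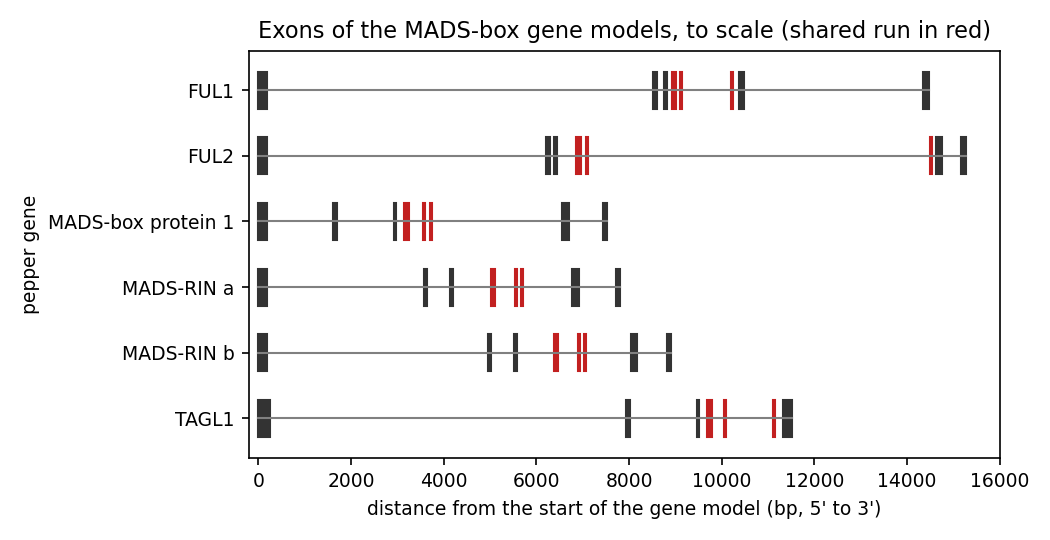
Exon maps of the 6 MADS-box gene models, drawn to scale from the start of each model in bp, with boxes for exons, lines for introns and the shared run of 100, 42 and 42 bp exons in red. The long first intron of FUL1 (8333 bp) and the short one of MADS-box protein 1 (1431 bp) stand out, while the red run is present in every row.

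All 6 genes had counts at both stages, but their order in the pool differed between the 2 stages. Levels are given as CPM (read counts relative to the composition-scaled size of the library) per kb of coding length, so that genes of different length can be compared. At 20 DAA the order was TAGL1, MADS-box protein 1, FUL2, FUL1, MADS-RIN b and MADS-RIN a, and only the last pair overlapped between libraries. At 68 DAA the order was MADS-RIN a, FUL1, TAGL1, MADS-RIN b, MADS-box protein 1 and FUL2, with no overlap between neighbours. The gene ranked last at 20 DAA was thus first at 68 DAA.

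**Figure D2:**
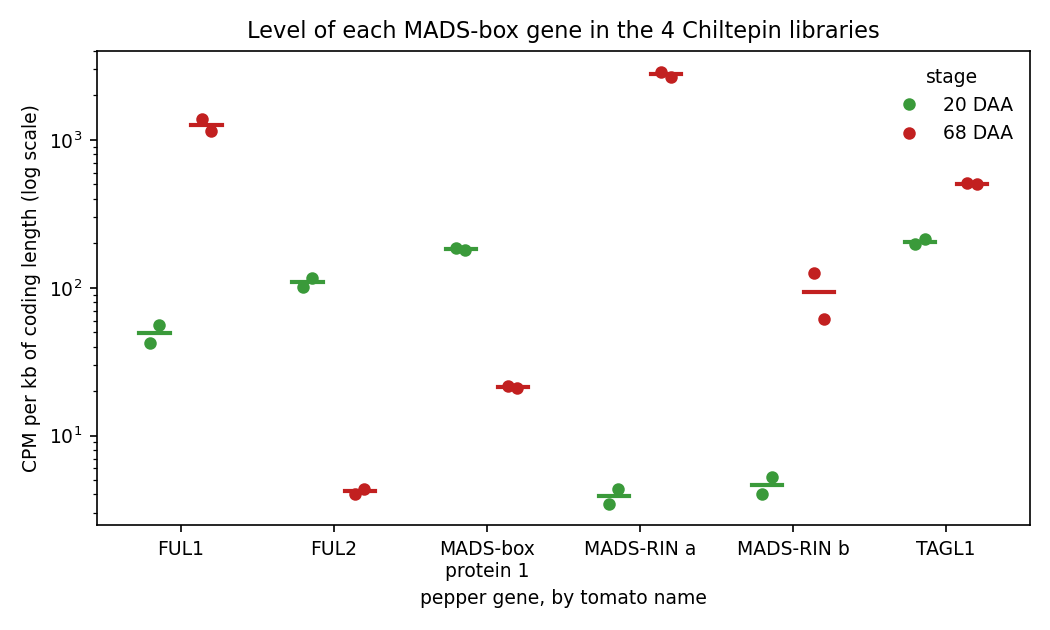
Level of each of the 6 genes in CPM per kb of coding length on a log axis, with 1 point per library (green 20 DAA, red 68 DAA) and a bar at the mean of the 2 libraries. MADS-RIN a lies near 3.92 at 20 DAA and near 2779 at 68 DAA, while FUL2 lies near 109 and then near 4.19.

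MADS-RIN a, the copy of the ripening activator, had 68 and 75 counts at 20 DAA against 24449 and 44509 at 68 DAA. Its level was 3.92 ± 0.656 CPM per kb (SD, n = 2) at 20 DAA and 2779 ± 128 at 68 DAA. Among the 17160 genes tested, this was a move from percentile 14.2 to percentile 99.8 of level per length. The fitted log2 fold change was 9.47 (SE 0.21, adjusted p = 7.43e-06, edgeR quasi-likelihood test with Benjamini-Hochberg adjustment over all tested genes).

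FUL1 had 866 and 988 counts at 20 DAA against 12192 and 19667 at 68 DAA. Its level was 49.3 ± 9.41 CPM per kb (SD, n = 2) at 20 DAA and 1268 ± 167 at 68 DAA. Unlike MADS-RIN a it was already well expressed in the younger fruit, at percentile 78.5. Its log2 fold change was 4.68 (SE 0.20, adjusted p = 2.44e-05 in the same edgeR fit).

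MADS-RIN b had 79 and 89 counts at 20 DAA against 1056 and 1015 at 68 DAA. The last values came from libraries of unequal depth, so that its level was 125 CPM per kb in CH 68DAA replicate 1 and 61.8 in replicate 2. This 2.02-fold gap between replicates was larger than that of 94.8% of tested genes, whereas the other members differed by 1.008-fold (TAGL1) to 1.20-fold (FUL1). The mean level was 4.65 ± 0.847 CPM per kb (SD, n = 2) at 20 DAA and 93.4 ± 44.7 at 68 DAA. Its log2 fold change of 4.32 had the largest error of the members (SE 0.38, adjusted p = 0.000246 in the same edgeR fit). It was 3.80 without replicate 1 at 68 DAA and 4.78 without replicate 2.

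TAGL1 had 4050 and 3825 counts at 20 DAA against 4530 and 8734 at 68 DAA. Its level was 206 ± 12.0 CPM per kb (SD, n = 2) and then 507 ± 2.85, and the libraries of the stages did not overlap. The rise of 2.46-fold passed the FDR limit (adjusted p = 0.000272, edgeR) but not the limit of 4-fold that a DEG needed here.

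The 2 members that fell were neighbours on chromosome 3. FUL2 had 2038 and 2013 counts at 20 DAA against 35 and 73 at 68 DAA. Its level was 109 ± 9.80 CPM per kb (SD, n = 2) and then 4.19 ± 0.209, a move from percentile 90.4 to percentile 23.9. Its log2 fold change was -4.69 (SE 0.14, adjusted p = 8.41e-06, edgeR). MADS-box protein 1 had 3676 and 3093 counts against 186 and 352, and levels of 182 ± 4.25 and 21.4 ± 0.402 CPM per kb (SD, n = 2). Its log2 fold change was -3.09 (SE 0.10, adjusted p = 1.09e-05, edgeR), and it was at percentile 57.6 at 68 DAA. The SEP gene thus fell less than its FUL neighbour.

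Of the 6 members, 5 were DEGs (FDR under 0.01 and at least 4-fold), where 26.9% of all tested genes were, and these counts are a description, since earlier results were known when the pool was chosen. The 3 members that rose as DEGs stand against 8.22% of tested genes, and the 2 that fell against 18.7%. By the FDR limit alone all 6 were called, 4 higher at 68 DAA (25.7% of tested genes) and 2 lower (32.0%), for 57.7% of tested genes in all. The libraries of the 2 stages did not overlap for any member, which was also so for 87.1% of tested genes. The median size of the log2 change was 4.50 over the members and 0.92 over all tested genes.

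**Figure D3:**
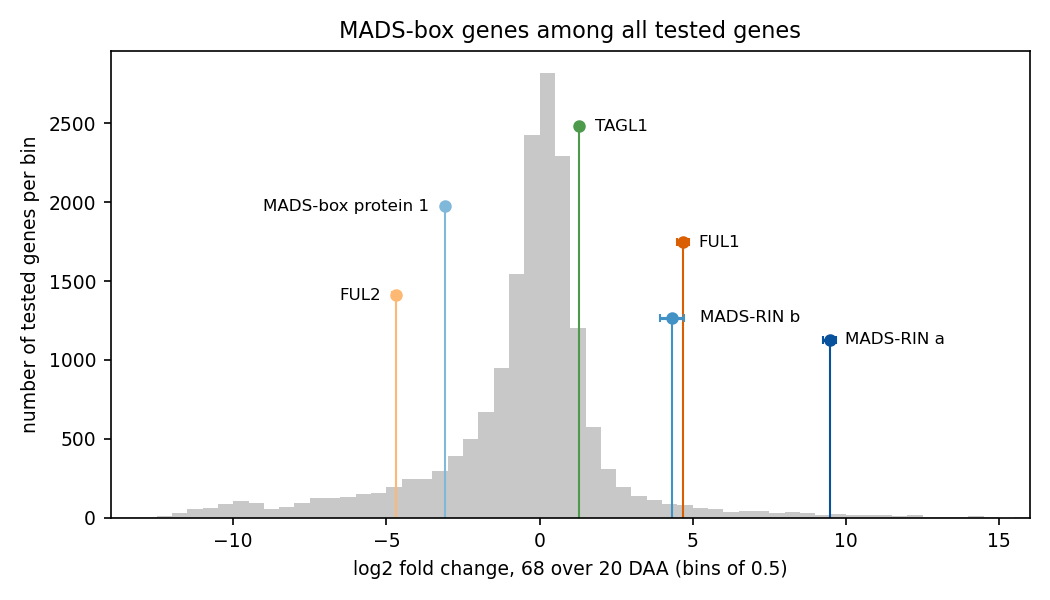
Grey bars count the 17160 tested genes in bins of 0.5 of the log2 fold change (68 over 20 DAA), and points with SE bars mark the members, whose height on the plot has no meaning. TAGL1 (1.30) lies in the bulk of all genes, FUL1 and MADS-RIN b lie in the upper tail, and MADS-RIN a (9.47) lies furthest out of the members.

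Shares of the pool do not depend on how libraries are scaled to each other, since numerator and denominator come from the same library. Shares are percentages of the summed counts per kb of the 6 genes, and they are descriptions with no test. At 20 DAA, TAGL1 made up 36.9% and 37.2% of the pool, MADS-box protein 1 34.7% and 31.2%, and FUL2 19.1% and 20.1%. FUL1 followed with 7.98% and 9.73%. The MADS-RIN copies together were below the share of any other gene, with 0.647% and 0.763% for MADS-RIN a and 0.758% and 0.913% for MADS-RIN b.

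At 68 DAA, MADS-RIN a made up 58.4% and 60.7% of the pool and FUL1 28.2% and 26.0%. TAGL1 held 10.4% and 11.4%, MADS-RIN b 2.54% and 1.40%, MADS-box protein 1 0.441% and 0.476%, and FUL2 0.0822% and 0.0979%. TAGL1 shows how level and share can part: its level rose 2.46-fold while its share was 37.0% at 20 DAA and 10.9% at 68 DAA. The 3 leaders at 20 DAA (TAGL1, MADS-box protein 1 and FUL2) held 89.6% ± 1.43 (SD, n = 2) of the pool then and 11.4% ± 0.772 at 68 DAA. MADS-RIN a and FUL1 held 9.56% ± 1.32 at 20 DAA and 86.6% ± 0.0392 at 68 DAA.

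**Figure D4:**
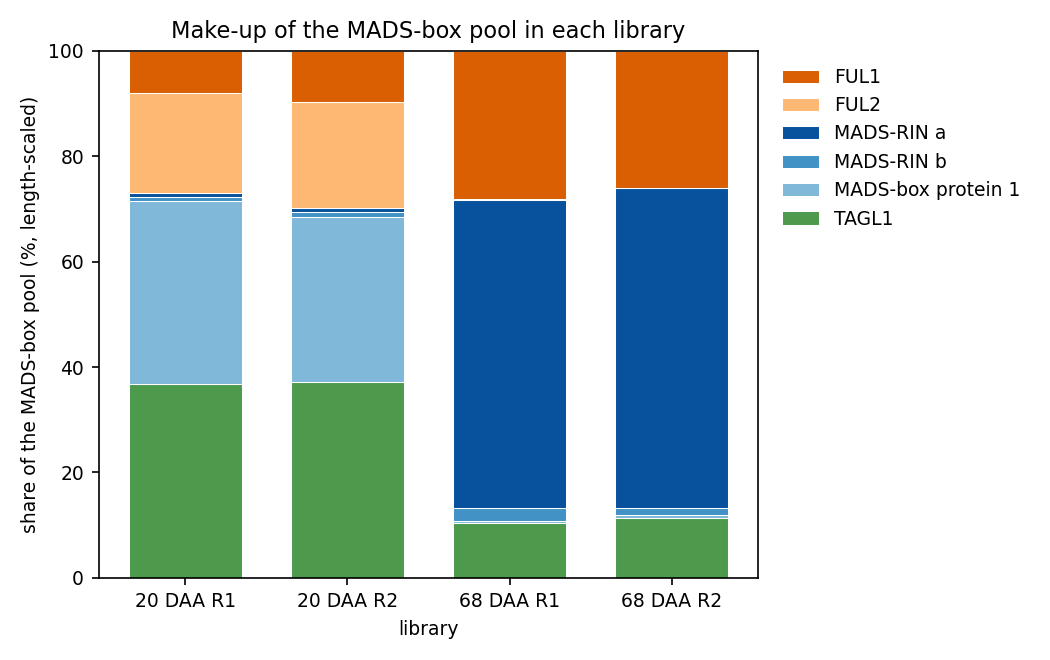
Stacked bars give the share of each gene in the MADS-box pool of each library, in percent of the length-scaled counts of the 6 genes, with FUL genes in orange, SEP genes in blue and TAGL1 in green. The orange block keeps about the same height in all 4 bars while FUL2 gives way to FUL1, and the blue block changes from MADS-box protein 1 to MADS-RIN a.

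The share of the pool that had to be reassigned to turn a library of one stage into a library of the other (the summed gains in share, which equal the summed losses) was 76.6% to 79.7%. Between replicates it was 3.38% to 3.47%. The pool was also less even at 68 DAA. The effective number of genes (how many equally abundant genes would give the same Shannon index) was 3.75 and 3.90 at 20 DAA and 2.80 and 2.70 at 68 DAA. With a limit of 5% of the pool, 4 genes contributed at 20 DAA and 3 at 68 DAA.

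By clade, the swap was uneven. The FUL clade held 27.0% and 29.9% of the pool at 20 DAA and 28.3% and 26.1% at 68 DAA, ranges that overlapped, although the gene behind the share was mostly FUL2 first and FUL1 later. The SEP clade held 36.1% and 32.9% at 20 DAA and 61.4% and 62.5% at 68 DAA. The AG clade, TAGL1 alone, was at 36.9% and 37.2% and then 10.4% and 11.4%. The study's text also speaks of another TAGL1 copy, which its list does not hold and which was not analysed here, so the share of this clade covers the listed gene only. The summed level was 8.04-fold higher at 68 DAA for the FUL clade (158 to 1272 CPM per kb), 15.1-fold higher for the SEP clade (191 to 2893) and 2.46-fold higher for TAGL1. The even share of the FUL clade depended on TAGL1 being in the pool. Without TAGL1 the FUL share was 45.2% at 20 DAA and 30.5% at 68 DAA, and the SEP share 54.8% and 69.5%.

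The pool as a whole was 535 and 575 CPM per kb at 20 DAA and 4914 and 4430 at 68 DAA, 8.42-fold higher. In raw terms the 6 genes took 0.0435% and 0.0472% of the assigned counts in the libraries of 20 DAA and 0.350% and 0.285% in those of 68 DAA. The 4 rising genes added 4383 CPM per kb between the stage means, of which MADS-RIN a gave 63.3%, FUL1 27.8%, TAGL1 6.87% and MADS-RIN b 2.02%. The change was not an exchange of equal amounts, since FUL2 and MADS-box protein 1 together dropped by 265.8 CPM per kb, 60.6% of it in MADS-box protein 1. Without MADS-RIN a the pool was 551 CPM per kb at 20 DAA and 1893 at 68 DAA, 3.44-fold higher.

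Ratios within a library compared the members pair by pair, and 6 pairs were computed. Pairs within a clade were planned, and pairs across clades were added to them. With 2 libraries against 2, a two-sided exact permutation test cannot go below p = 0.333, and each of the 6 pairs gave that value, before and after adjustment over the pairs. All the pairs were separated between stages, with no overlap of the libraries. Each member was already separated when taken alone, as were 87.1% of tested genes.

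FUL1 made up 29.8% of the counts of the FUL genes (exact Clopper-Pearson 95% interval 28.2 to 31.5) in CH 20DAA replicate 1 and 32.9% (31.2 to 34.6) in replicate 2. At 68 DAA it made up 99.7% (99.6 to 99.8) and 99.6% (99.5 to 99.7). Intervals cover counting error only. Per length, FUL2 was 2.23-fold above FUL1 at 20 DAA and FUL1 was 301-fold above FUL2 at 68 DAA, a change of 9.39 ± 0.30 in the log2 ratio (SD, n = 2 per stage). On the log2 scale the changes of both genes were of nearly the same size and opposite sign (4.68 and -4.69). In level they were not: FUL1 changed by 1218 CPM per kb and FUL2 by -105.

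Inside the SEP clade, MADS-box protein 1 was 21.4-fold above the summed MADS-RIN genes at 20 DAA, and the MADS-RIN genes were 134-fold above MADS-box protein 1 at 68 DAA. The log2 ratio moved by 11.5 ± 0.29 (SD, n = 2 per stage), the largest change of the 6 pairs. Most of it lay on the MADS-RIN side, since MADS-box protein 1 changed by -3.09. Taken singly, MADS-RIN a changed by 9.47 and MADS-RIN b by 4.32, and the change of their sum lay between.

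The MADS-RIN copies were close to each other at 20 DAA and far apart at 68 DAA. MADS-RIN b gave 53.7% (interval 45.3 to 62.0) and 54.3% (46.3 to 62.1) of the counts of both copies at 20 DAA, intervals that include equal shares. At 68 DAA MADS-RIN a was 31.6-fold above MADS-RIN b per length. The counts of MADS-RIN b were 4.32% of those of MADS-RIN a in replicate 1 and 2.28% in replicate 2, a difference beyond their counting intervals. Whether the copies are alike enough for reads to be split between them was not tested, since their sequences were not used. Between 3.07% and 5.22% of entries per library were not uniquely placed and were not counted on any gene, but how many of them came from the MADS-RIN copies was not tested, so the level of the weaker copy is uncertain. The change in its share of the pool, 1.13 percentage points, rested on the replicate too. It was 0.56 without CH 68DAA replicate 1 and 1.71 without replicate 2.

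The leaders of the older fruit also changed places. FUL1 was 12.5-fold above MADS-RIN a at 20 DAA, and MADS-RIN a was 2.20-fold above FUL1 at 68 DAA. The neighbours on chromosome 3 fell together but unequally: MADS-box protein 1 was 1.68-fold above FUL2 at 20 DAA and 5.10-fold above it at 68 DAA. TAGL1 and MADS-box protein 1 were nearly level at 20 DAA (1.13-fold) and 23.7-fold apart at 68 DAA.

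**Figure D5:**
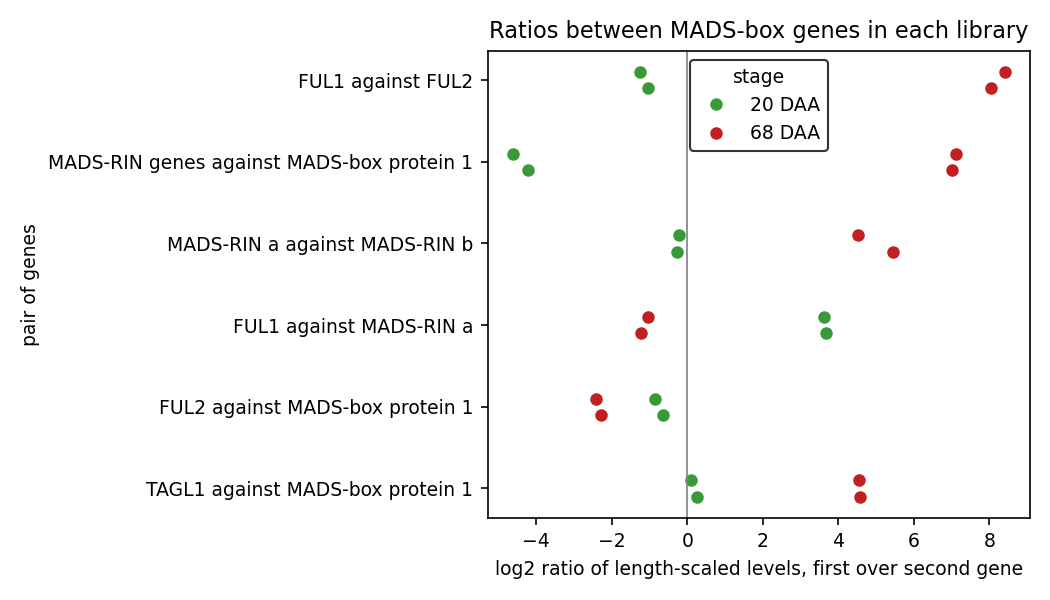
The log2 ratio of length-scaled levels for 6 pairs of genes, first gene over second, with 1 point per library (green 20 DAA, red 68 DAA). The ratio of the MADS-RIN genes to MADS-box protein 1 moves furthest, from about -4.42 to 7.07, and that of FUL1 to FUL2 from about -1.15 to 8.24.

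FUL2 and MADS-box protein 1 lie 16956 bp apart on the same strand with no gene model between them, and they were also neighbours in the RefSeq gene table (assembly UCD10Xv1.1), where all 6 members were matched. In this arrangement the SEP gene lies upstream and the FUL gene downstream. MADS-RIN a had a similar setting. The next model downstream of it, 13600 bp away on the same strand, also carried the run of 100, 42 and 42 bp exons, but is not on the list of ripening homologs and is left unnamed. It had 214 and 154 counts at 20 DAA against 12 and 10 at 68 DAA, a log2 fold change of -3.42 (SE 0.42, adjusted p = 0.000697, edgeR), so it fell where MADS-RIN a rose. Of the other tested models beside members, the one upstream of TAGL1 (-2.17, adjusted p = 0.000786, edgeR) and the one upstream of MADS-box protein 1, at 516 and 419 counts against 0 and 0, were also DEGs that fell, where 18.7% of all tested genes did. The models downstream of TAGL1 (-1.56, adjusted p = 9.89e-05, edgeR) and upstream of FUL1 (-0.50, adjusted p = 0.0697, edgeR) were not DEGs.

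The other ripening transcription factors of the list that were DEGs all fell. Of 6 genes, 5 were tested and 3 were DEGs that fell (18.7% of all tested genes), with a median log2 fold change of -4.37 against -0.041 over all tested genes. GLK2 fell by 8.99, LeSPL-CNR, the homolog of the tomato Colorless non-ripening factor, by 7.27, and the auxin response factor ARF4 by 4.37 on the log2 scale. GLK2 was also the green-fruit gene of the stage check. The change of NAC1 was 1.21 (edgeR, adjusted p = 0.0114) and that of ERF6 was 0.38 (edgeR, adjusted p = 0.0198), neither past the limit. AP2, with 5 and 2 counts at 20 DAA and 0 in both libraries of 68 DAA, was not tested.

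Genes that RIN binds or controls in tomato were divided in direction. Of 9 genes, 7 were tested, with 3 DEGs higher (8.22% of all tested genes) and 3 lower (18.7%) at 68 DAA and a median log2 fold change of -1.23 against -0.041 over all tested genes. PSY1 rose by 6.27, SGR1 by 7.98 on the log2 scale, and PG2 from counts near 0. These 3 were the ripe-fruit genes of the stage check, so their rise is not a separate result. Of 3 copies of the lipoxygenase TomloxC, which makes fruit volatiles, the 1 tested copy fell by 9.36. LeSPL-CNR, which is also among the transcription factors above, fell by 7.27. Alpha-mannosidase, an enzyme that trims protein glycans, fell by 2.98. Beta-hex, another glycan-trimming enzyme, fell by 1.23 and was not a DEG. The level of MADS-RIN a and the direction of these genes were measured in the same 4 libraries, and binding was not measured.

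For each member, the gene of the list outside the pool with the most similar profile was the one at the smallest distance between centred log2 CPM values over the 4 libraries, out of 26 tested genes. XTH5, a cell wall enzyme, was nearest to TAGL1 (distance 0.12), alpha-mannosidase to MADS-box protein 1 (0.27) and ARF4 to FUL2 (0.35). MADS-RIN a was nearest to SGR1 at a distance of 1.50, and FUL1 and MADS-RIN b were nearest to PSY1 (1.67 and 2.32). These distances grow with the size of a gene's change, so they do not rank the members by closeness.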

How the data were processed

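Whole-fruit RNA-Seq of Chiltepin was analysed in 4 libraries, 2 per stage, grouped by their labels. The authors trimmed reads with Trimmomatic 0.36, aligned them with HISAT2 2.1.0 to cv. CM334 and counted them with HTSeq 0.11.0 in union mode. They deposited raw counts per gene with no normalization, and the gene models used for counting, from which the other values used here (start and end positions) were read. The strand setting is not given in the sources used here. Rows that name no gene (31.7% to 38.2% of entries) were left out.

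Counts were normalized by TMM (factors 0.868 to 1.10) in edgeR 4.0.16 (R 4.3.3). Genes whose mean log2 CPM over the libraries reached 1 were tested with the quasi-likelihood test, and a DEG had an FDR under 0.01 and at least a 4-fold change. Standard errors came from the fitted dispersion. The procedure was also run on simulated counts with 200 changed genes and a common dispersion. That setting is simpler than these data, so no support is drawn from it. Shares used counts per kb of coding length (Python 3.11.15, pandas 2.3.3, scipy 1.17.1). Depth limits low counts most in CH 68DAA replicate 1, and a count of 3 or fewer was read as a floor.

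The rule for named genes was all members, the most similar gene of the list for each, and called genes of both lists of network genes. The members and lists were chosen with earlier results of these data known. DESeq2 1.42.0 and limma 3.58.1 were among the alternatives. Sequences of the members are not used here.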

Additional observations from a re-analysis of the deposited data

How the results depend on the processing

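All 60 recomputed fold changes of the members (10 alternatives for each of the 6) kept their direction and an FDR under 0.01, with TAGL1 the closest to the limit (adjusted p up to 0.00842, with CH 20DAA replicate 1 left out). The alternatives were DESeq2 size factors, library totals only, no filter on low counts, the DESeq2 Wald test, limma-voom, the replicate block and each library left out. Leaving a library out gave 4151 to 4806 DEGs, with the lone library of a stage assumed to vary like the others. Library totals moved the median log2 fold change of all tested genes from -0.041 to -0.30, a shift against which the smallest member change (TAGL1, 1.04 at the lowest) stayed above 0, and gave a pool total 7.07-fold higher. With no fold limit there were 9904 DEGs, 4415 higher and 5489 lower, and TAGL1 was then called. With no filter on low counts there were 6536 DEGs, 1903 higher and 4633 lower, against 4615 in the main fit. Without TAGL1 in the pool the FUL clade share changed by -14.7 and the SEP clade share by 14.7 percentage points. With each library left out, the change of the FUL clade share ranged from -2.71 to 0.12 points, that of the SEP clade from 25.9 to 29.1 and the fold of the pool total from 7.98 to 8.86. Pools added after seeing the data gave a total 3.44-fold higher without MADS-RIN a and 1.95-fold higher over all gene models with the shared exon run. The correlation of same-numbered deviations was 0.025, but with 2 pairs it cannot tell whether replicate numbers pair the libraries. The replicate block gave 4665 DEGs (1428 higher, 3237 lower). Exon and coding length were identical, so that alternative gave no other value.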

Other observations

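The run of 100, 42 and 42 bp exons that all 6 members carry was also present in 17 other gene models, which were looked at after the data were seen and are left unnamed because the list of ripening homologs does not name them. Of these 17 models, 12 were tested, 2 were DEGs higher and 5 were DEGs lower at 68 DAA (background 8.22% and 18.7% of tested genes), and their median log2 fold change was -1.24 against -0.041 over all tested genes. At 20 DAA 3 of them lay above every member of the pool, at 877 ± 49.4, 733 ± 9.13 and 239 ± 0.0258 CPM per kb (SD, n = 2). At 68 DAA the same 3 models were at 72.8 ± 6.55, 208 ± 29.8 and 152 ± 6.21 CPM per kb, and 0 of the 17 lay above the leading member. The first of the 3 fell as a DEG with a log2 fold change of -3.59 (SE 0.14, adjusted p = 1.72e-05, edgeR).

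Together the 17 models summed to 2215 ± 25.5 CPM per kb at 20 DAA and 720 ± 23.8 at 68 DAA (SD, n = 2). The 6 members were therefore 19.3% and 20.7% of the level of all 23 models with the run at 20 DAA, and 87.0% and 86.3% at 68 DAA. Over the 23 models the total was 2770 CPM per kb at 20 DAA and 5392 at 68 DAA, 1.95-fold higher, where the pool of ripening regulators was 8.42-fold higher.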
